A study of Homo sapiens with 6 samples.

Results

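ZBTB genes encode transcription factors that pair an N-terminal BTB domain, also called POZ, with C-terminal C2H2 zinc fingers. They were followed in SU-DHL-8 cells, an established human diffuse large B-cell lymphoma line, given beta-sitosterol at 15 µM, a sterol of plants, and set against cells given DMSO, both for 24 h. The cells of both groups were unmodified, came from the same line and grew in RPMI 1640 with fetal bovine serum, and there were 3 libraries per group, described as replicate experiments. The family was taken as every row of the deposited count table whose symbol is ZBTB followed by a number and at most 1 letter and whose counts sum to at least 60 over the 6 libraries. Of 41 matching symbols 34 met the rule, out of 65746 genes in the table, and all 34 were among the 11525 genes tested. Just inside the limit was ZBTB32 with 70 counts, and the next lowest member was ZBTB20 with 263. Nearest below the limit was ZBTB42 with 16 counts, followed by ZBTB8A with 5, ZBTB8B with 4, and ZBTB16 and ZBTB47 with 3 each. ZBTB7C and ZBTB9 were listed at 0, and nothing is said here of their expression.

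The zinc fingers of these proteins bind DNA, and the POZ domain forms dimers and recruits corepressor complexes such as NCOR1 and BCOR with histone deacetylases. Most members are known as repressors. In lymphocytes the family holds several fate regulators, among them BCL6, which carries another symbol, ZBTB7A, which favours the B over the T lineage, and ZBTB7B, which directs T cells to the CD4 lineage.

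Of the 34 genes, 12 were lower and 2 higher after beta-sitosterol, and 20 did not pass the test. Among the lower were ZBTB12, ZBTB45, ZBTB7A and ZBTB18, which fell to between 44.0% and 56.3% of the level in DMSO, and the higher were ZBTB48 and ZBTB20. The test was edgeR's quasi-likelihood F test, two-sided, with Benjamini-Hochberg adjustment over all tested genes and a threshold of 0.05. The share of members called, 41.2%, lay beside 40.8% of all tested genes, so that the family was not called more often than genes at large. Split by direction, 35.3% of members and 21.8% of all tested genes were lower, and 5.88% of members and 19% of all tested genes were higher. On the deposited TPM scale, log2(TPM + 1), where the median of all genes lay at -0.19, 10 members were lower and 0 higher. Of the 11525 tested genes, 2226 were lower and 713 higher on that scale. The median log2 fold change of the members was -0.23, against -0.04 over all tested genes, and on log2(TPM + 1) it was -0.39. These counts and medians describe the family and were not tested as a set.

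The counts of called members, like those over all genes, changed when single libraries were left out. Without beta-sitosterol replicate 1, 2 or 3, 6 members were lower and 0 higher in each case. Over all genes 1617, 1593 and 1654 were then lower and 1510, 1501 and 1507 higher, against 2512 and 2185 with every library. Without DMSO replicate 1, 9 members were lower and 0 higher, beside 2038 and 1781 of all genes. Without DMSO replicate 2, 12 were lower and 5 higher, beside 3549 and 3091 of all genes. Without DMSO replicate 3, 14 were lower and 1 higher, beside 2578 and 2564 of all genes. These fits tested 11715 to 11786 genes. With the trend of counts on gene length removed, 11 members were lower and 5 higher, since ZBTB10, ZBTB21 and ZBTB43 then passed on the higher side. Over all genes 2397 were lower and 2270 higher with that trend removed. ZBTB4, ZBTB7A, ZBTB12, ZBTB18 and ZBTB45 were lower in the main test and under all 18 alternatives, and none of the 14 called members changed direction under any of them.

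**Figure D1:**
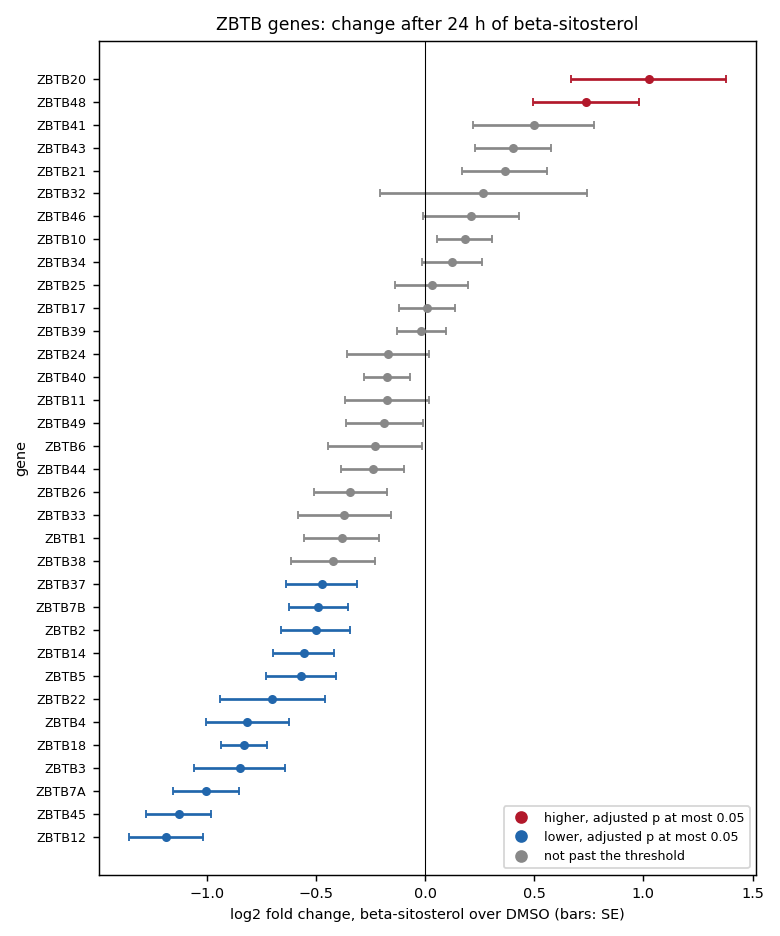
Log2 fold change of each of the 34 ZBTB genes, beta-sitosterol over DMSO, with bars of 1 SE and 3 libraries per group. The 12 lower genes range to -1.19 for ZBTB12 and the 2 higher genes to 1.02 for ZBTB20, with the 20 genes not past the threshold between them.

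Totals were 29360142, 26453281 and 27839616 counts in the beta-sitosterol libraries and 33536824, 31314446 and 35565620 in the DMSO libraries. Treated libraries were more alike than DMSO libraries, with a lowest correlation of log2 CPM across genes of 0.994 among treated and 0.972 among DMSO libraries. For the members the median SD was 0.08 log2 units over treated and 0.26 over DMSO libraries, and for 31 of 34 the range of values was wider in DMSO. DMSO replicate 2 was the highest DMSO library for 22 of 34 members and DMSO replicate 3 the lowest for 20. All 8 B-cell markers examined were expressed, with summed levels of 5390 to 5683 CPM in treated and 4905 to 5820 CPM in DMSO libraries, most of it CD74. Single markers differed in both directions: PAX5 and EBF1 were lower, at 0.315 and 0.239 times their DMSO level (edgeR adjusted p = 8.07e-05 and 3.31e-04), MS4A1 and CD79A were 4.68-fold and 2.07-fold higher (edgeR adjusted p = 1.11e-04 and 5.35e-04), and CD22, CD74 and CD79B did not pass. The part of these differences in the results was not tested. CPM is the count of a gene relative to its library's total, which was scaled by TMM factors. T-cell markers summed to at most 0.272 CPM with CD3E, CD3G and CD2 at 0, and red-cell markers to at most 0.0727 CPM with HBA2 and HBB among those at 0. The 6 myeloid markers summed to 6.51 to 8.47 CPM in treated and 5.43 to 7.36 CPM in DMSO libraries, most of it LYZ. Epithelial markers summed to 0.102 to 1.05 CPM in treated and 0.0627 to 0.0881 CPM in DMSO libraries. Fibroblast markers summed to 0.681 to 1.16 CPM in treated and 0.0577 to 0.126 CPM in DMSO libraries, with DCN at 0. The part of these low signals in the results was not tested. Each library is the bulk RNA of a culture, so fewer cells that express a gene and less of its RNA per cell cannot be told apart.

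**Figure D2:**
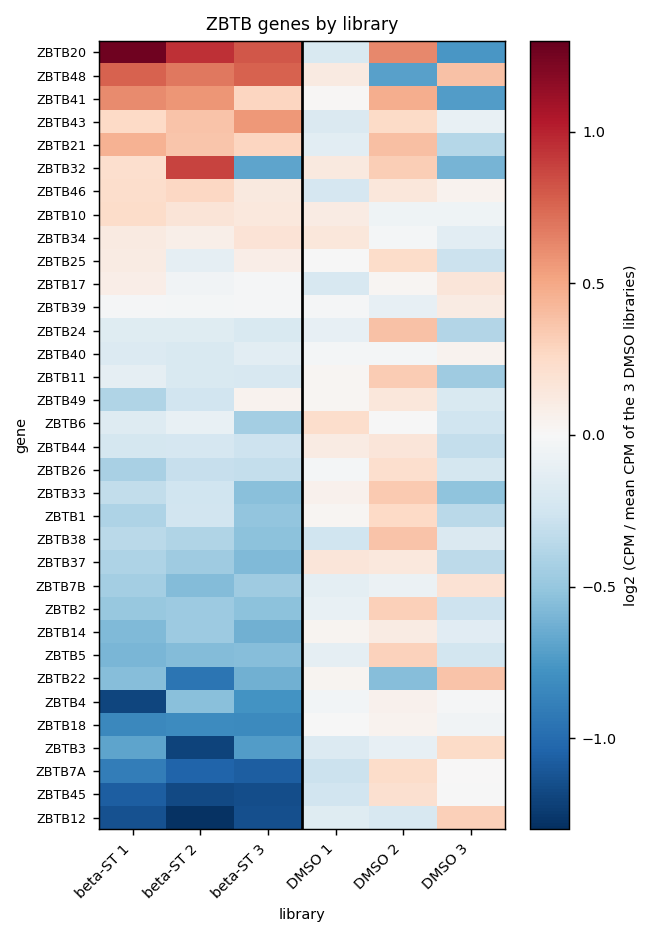
Level of each ZBTB gene in each library as log2 of its CPM over the mean CPM of the 3 DMSO libraries, with beta-sitosterol libraries on the left, genes in the order of their fold change and red for higher, blue for lower. The lowest rows are blue in all 3 treated libraries, and the DMSO columns differ among themselves, replicate 2 being the highest of the 3 for 22 genes.

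Promoter sequences are shown for the 4 lower genes with the smallest p-values and for ZBTB48, the more abundant of the 2 higher genes. They come from RefSeq on GRCh38.p14 and run from 250 bases before to 50 after a gene start, 5′ to 3′ on the gene's strand, the first listed start being used where there are several. Capitals mark GC boxes, GGGCGG on either strand, the site of SP1 and related factors, and the cyclic AMP response element TGACGTCA.
ZBTB18, chr1:244048403-244048702, plus strand: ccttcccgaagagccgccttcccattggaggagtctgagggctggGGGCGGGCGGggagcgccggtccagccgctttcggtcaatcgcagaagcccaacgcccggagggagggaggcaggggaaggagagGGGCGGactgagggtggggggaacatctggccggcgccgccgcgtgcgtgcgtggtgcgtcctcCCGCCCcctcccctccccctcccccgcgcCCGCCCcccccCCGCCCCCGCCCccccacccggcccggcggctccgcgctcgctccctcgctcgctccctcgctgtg
ZBTB45, chr19:58538862-58539161, minus strand: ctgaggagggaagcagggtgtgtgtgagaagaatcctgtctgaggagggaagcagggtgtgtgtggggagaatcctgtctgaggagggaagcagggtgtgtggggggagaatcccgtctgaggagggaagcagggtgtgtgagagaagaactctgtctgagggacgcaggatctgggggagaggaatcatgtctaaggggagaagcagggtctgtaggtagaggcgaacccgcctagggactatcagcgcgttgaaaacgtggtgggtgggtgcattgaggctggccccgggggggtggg
ZBTB12, chr6:31902037-31902336, minus strand: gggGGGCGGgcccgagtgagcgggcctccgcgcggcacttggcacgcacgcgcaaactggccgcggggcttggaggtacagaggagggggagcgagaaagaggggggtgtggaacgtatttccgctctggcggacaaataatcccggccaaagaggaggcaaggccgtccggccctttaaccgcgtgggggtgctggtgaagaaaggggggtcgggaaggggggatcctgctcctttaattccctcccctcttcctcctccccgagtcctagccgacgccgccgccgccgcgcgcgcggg
ZBTB7A, chr19:4066850-4067149, minus strand: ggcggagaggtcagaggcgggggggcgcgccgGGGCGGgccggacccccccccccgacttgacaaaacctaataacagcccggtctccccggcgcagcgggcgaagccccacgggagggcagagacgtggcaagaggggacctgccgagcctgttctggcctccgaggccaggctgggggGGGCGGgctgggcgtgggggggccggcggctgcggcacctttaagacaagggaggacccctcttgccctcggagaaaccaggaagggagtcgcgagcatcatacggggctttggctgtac
ZBTB48, chr1:6579744-6580043, plus strand: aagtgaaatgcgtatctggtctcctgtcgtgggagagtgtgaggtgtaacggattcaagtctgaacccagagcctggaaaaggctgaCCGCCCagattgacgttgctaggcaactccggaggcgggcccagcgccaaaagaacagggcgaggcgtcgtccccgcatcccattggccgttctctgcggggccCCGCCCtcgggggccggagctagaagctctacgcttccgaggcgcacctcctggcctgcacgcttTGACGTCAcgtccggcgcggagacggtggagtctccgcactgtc
The ZBTB18 window holds 7 GC boxes, some overlapping, against 1 in ZBTB12, 2 each in ZBTB7A and ZBTB48, and 0 in the ZBTB45 window shown. The ZBTB48 window also holds 1 cyclic AMP response element.

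Promoter windows were listed for 29 of the 34 members, 59 windows in all. ZBTB6, ZBTB10, ZBTB17, ZBTB40 and ZBTB41 had none. A GC box was in at least 1 window of all 12 lower genes, both higher genes and 13 of the 15 other genes, and in 61% of member windows against 45% of the 35116 windows of all genes. Counts by gene were not made over all genes, and a gene with more listed windows has more chances of a match. Among the called genes, the first listed windows of ZBTB14, ZBTB45 and ZBTB20 held 0 GC boxes. The median GC content of member windows was 62.3%, against 58.7% over all windows. The E-box CACGTG, to which MYC and MAX bind, was found in 1 of 12 lower genes, 0 of 2 higher genes and 7 of 15 others, and in 13.6% of member windows against 7.26% of all windows. The AP-1 letters TGANTCA were found in 8.47% of member and 7.71% of all windows, and TGACGTCA in 6.78% of member and 1.85% of all windows. TCCTGCNA, a sequence known to be bound by ZBTB33, was in 5.08% of member and 4.69% of all windows. All motifs were searched on both strands, and overlapping matches were each counted. A match is a run of letters and was not tested as a binding site.

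Of the 9 genes listed as lymphocyte factors 8 were members, of which 2 fell, 1 rose and 5 did not pass. Counts by role, here and below, were not tested, and stand beside 21.8% of all tested genes lower and 19% higher. ZBTB7A (ENSG00000178951, chromosome 19, 4043303 to 4066899), also called LRF, is needed in mice for B-cell commitment and in human red cells silences the fetal globin genes. It had 37.4, 34.1 and 33.2 CPM in beta-sitosterol libraries, against 57.6, 82.2 and 70.0 CPM in DMSO libraries. Every treated value lay below every DMSO value, and DMSO replicate 2 was the highest. ZBTB7A was at 0.499 times its DMSO level, with an SE of 0.15 on the log2 scale (edgeR adjusted p = 0.00146). ZBTB7B (ENSG00000160685, chromosome 1, 155001750 to 155018523), the CD4 lineage factor ThPOK, had 20.9, 19.1 and 20.5 CPM in treated and 25.8, 26.8 and 32.3 CPM in DMSO libraries. The groups did not overlap, and it fell by 0.49 ± 0.14 on the log2 scale, ± being the SE wherever a log2 change is given (edgeR adjusted p = 0.0205). That call was lost without treated replicate 1, 2 or 3 (edgeR adjusted p = 0.07, 0.102 and 0.0766) and on log2(TPM + 1) (limma adjusted p = 0.0775).

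ZBTB20 (ENSG00000181722, chromosome 3, 114314500 to 115147288), which in mice sustains long-lived plasma cells, was the member with the lowest level per length. It had 2.34, 1.89 and 1.71 CPM in treated and 0.851, 1.51 and 0.577 CPM in DMSO libraries, with counts of 69, 50 and 47 in treated and 29, 48 and 20 in DMSO libraries. The lowest treated value lay just above the DMSO replicate 2 value. ZBTB20 was 2.03-fold higher (log2 fold change 1.02 ± 0.35, edgeR adjusted p = 0.0475). It missed the threshold without DMSO replicate 1 or 3 (0.146 and 0.0896), without treated replicate 1, 2 or 3 (edgeR adjusted p = 0.161, 0.102 and 0.0835), and with library totals in place of TMM (0.0555). The call was also lost on log2(TPM + 1) and log2(TPM + 0.1). Its smallest log2 fold change over the 18 alternatives was 0.082.

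Among the lymphocyte factors not past the threshold, ZBTB1, which in mice is required for lymphoid development, had 23.3, 25.8 and 21.6 CPM in treated and 31.2, 36.7 and 24.1 CPM in DMSO libraries (edgeR adjusted p = 0.11). Only the DMSO replicate 3 value lay within the treated range, and without that library the adjusted p was 0.024 by edgeR. ZBTB17, or MIZ-1, the zinc finger partner through which MYC represses genes, had 63.7, 57.9 and 59.2 CPM in treated and 52.0, 61.1 and 66.6 CPM in DMSO libraries. Its groups overlapped widely, and the difference of 0.01 ± 0.13 on the log2 scale (edgeR adjusted p = 0.965) turned to -0.23 on log2(TPM + 1). ZBTB25 stood at 13.1 ± 1.08 CPM in treated and 12.8 ± 2.29 CPM in DMSO libraries (SD, n = 3 each). The dendritic-cell factor gene ZBTB46 stood at 1.78 ± 0.09 and the CIITA repressor gene ZBTB32 at 0.423 ± 0.213 CPM in treated libraries, against 1.53 ± 0.19 and 0.351 ± 0.108 CPM in DMSO libraries.

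**Figure D3:**
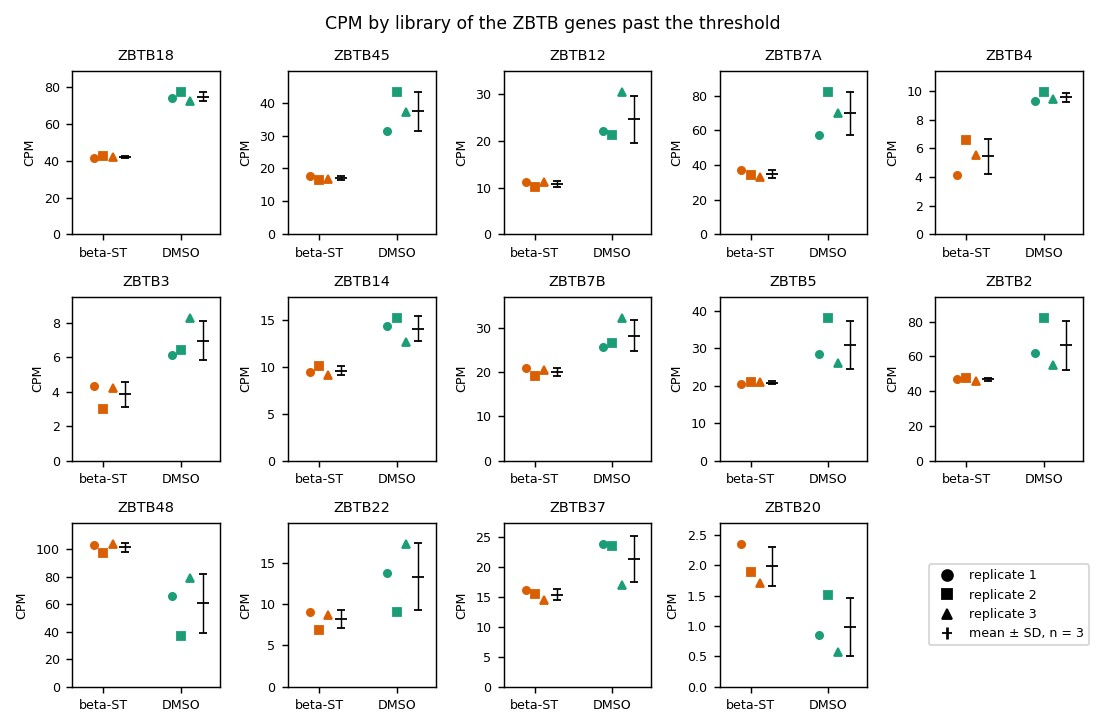
CPM in each library for the 14 ZBTB genes past the threshold, each on its own axis from 0, with beta-sitosterol (beta-ST) left of DMSO and the mean ± SD of 3 libraries beside the points. Treated and DMSO values do not overlap in any of the 14 panels, and the gap is narrow for ZBTB22, ZBTB37 and ZBTB20.

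Of the 4 genes listed as neural and muscle repressors 3 were members, ZBTB18, ZBTB45 and ZBTB14, and all 3 were lower. Over all tested genes 21.8% were lower, and this small listed group was not tested as a set. ZBTB18 (ENSG00000179456, chromosome 1, 244048491 to 244057476), also known as RP58, is a repressor required for cortical neuron development in mice, and had the smallest p-value of the family. It had 41.8, 42.5 and 42.1 CPM in beta-sitosterol libraries, against 74.4, 77.5 and 72.7 CPM in DMSO libraries. Both groups were tight and far apart, ZBTB18 falling by 0.83 ± 0.11 log2 units (edgeR adjusted p = 6.9e-04). ZBTB45 (ENSG00000119574, chromosome 19, 58513530 to 58538911), linked to glial differentiation in mice, had 17.8, 16.6 and 16.8 CPM in treated and 31.5, 43.2 and 37.3 CPM in DMSO libraries. It fell by 1.13 ± 0.15 on the log2 scale (edgeR adjusted p = 7.54e-04), every DMSO value lying well above the treated ones. ZBTB14 (ENSG00000198081, chromosome 18, 5289022 to 5297053), or ZF5, first described as a factor binding the MYC promoter, had 9.44, 10.1 and 9.13 CPM in treated and 14.4, 15.2 and 12.6 CPM in DMSO libraries. The groups were apart, ZBTB14 falling by 0.56 ± 0.14 on the log2 scale (edgeR adjusted p = 0.0133), and the call was lost without treated replicate 1 or 3 (0.0638 and 0.0695).

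Of the 4 factors that bind methylated DNA or are tied to its maintenance 1 fell and 3 did not pass. ZBTB4 (ENSG00000174282, chromosome 17, 7459378 to 7484249), a reader of methylated CpG, had 4.18, 6.58 and 5.56 CPM in treated and 9.31, 9.94 and 9.44 CPM in DMSO libraries. Here the treated libraries were the more variable ones, and all lay below DMSO (log2 fold change -0.81 ± 0.19, edgeR adjusted p = 0.00971). ZBTB38, a related reader, had 10.6, 10.3 and 9.42 CPM in treated and 11.3, 17.5 and 11.9 CPM in DMSO libraries (edgeR adjusted p = 0.11), the groups being apart by a small margin. On log2(TPM + 1), where the median of all genes was itself negative, ZBTB38 passed the threshold on the lower side (limma adjusted p = 0.0215). ZBTB33, or KAISO, had 26.3, 27.5 and 22.5 CPM in treated and 34.2, 41.5 and 22.9 CPM in DMSO libraries (edgeR adjusted p = 0.197). Its low DMSO value was that of replicate 3, without which the edgeR adjusted p was 0.0223. ZBTB24, mutated in the ICF immunodeficiency syndrome, had 55.2, 54.9 and 53.6 CPM in treated and 57.0, 80.1 and 47.0 CPM in DMSO libraries, which lay on both sides of the treated values (edgeR adjusted p = 0.497).

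Of 4 factors reported to act on the cell cycle inhibitor gene CDKN1A or on p53, 2 fell. ZBTB2 (ENSG00000181472, chromosome 6, 151364115 to 151391559), a reported repressor of this pathway, had 47.1, 47.7 and 45.9 CPM in treated and 62.0, 82.1 and 55.2 CPM in DMSO libraries. Treated values were nearly equal and all below DMSO (log2 fold change -0.50 ± 0.16, edgeR adjusted p = 0.0344). ZBTB5 (ENSG00000168795, chromosome 9, 37438102 to 37465450), another reported CDKN1A repressor, had 20.4, 20.9 and 21.1 CPM in treated and 28.4, 38.0 and 26.2 CPM in DMSO libraries. It fell by 0.57 ± 0.16 on the log2 scale (edgeR adjusted p = 0.0225). In both genes DMSO replicate 2 was the highest library. Without treated replicate 1, 2 or 3 neither passed (edgeR adjusted p = 0.108, 0.102 and 0.118 for ZBTB2, and 0.0872, 0.08 and 0.0772 for ZBTB5), and ZBTB2 did not pass without DMSO replicate 1 either (0.0622). ZBTB49, a reported CDKN1A activator, stood at 7.44 ± 1.19 CPM in treated and 8.47 ± 1.03 CPM in DMSO libraries (SD, n = 3 each; edgeR adjusted p = 0.431).

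Among the 3 members tied to telomeres ZBTB48 rose. ZBTB48 (ENSG00000204859, chromosome 1, 6579994 to 6589280), or TZAP, binds telomeric repeats and limits telomere length, and had the highest CPM of the family in treated cells. It had 103, 97.3 and 103 CPM in treated and 65.9, 37.2 and 78.9 CPM in DMSO libraries. DMSO replicate 2 was far below the other DMSO libraries, and all treated values lay above all DMSO values. The log2 fold change was 0.74 ± 0.24 (SE; edgeR adjusted p = 0.0394). ZBTB48 did not pass without DMSO replicate 1 (0.0904), without treated replicate 1, 2 or 3 (edgeR adjusted p = 0.107, 0.0865 and 0.104) or on log2(TPM + 1) (limma adjusted p = 0.37). ZBTB10, which binds variant telomeric repeats, had 16.1, 15.4 and 15.0 CPM in treated and 14.7, 13.1 and 13.1 CPM in DMSO libraries (edgeR adjusted p = 0.286). With the length trend removed ZBTB10 passed on the higher side at 0.41 on the log2 scale (edgeR adjusted p = 0.0335), and on log2(TPM + 1) its sign was negative. ZBTB40 had 62.5, 61.4 and 64.0 CPM in treated and 69.2, 69.5 and 73.1 CPM in DMSO libraries, close but not overlapping (log2 fold change -0.17 ± 0.11, edgeR adjusted p = 0.222), and its sign was positive with the length trend removed.

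Less studied members numbered 13, of which 4 fell and 9 did not pass. ZBTB12 (ENSG00000204366, chromosome 6, 31899613 to 31902086) lies in the major histocompatibility region and overlaps the annotated complement gene C2, so that reads could be shared if strand was not used in counting. It had 11.2, 10.1 and 11.2 CPM in beta-sitosterol libraries, against 22.0, 21.3 and 30.4 CPM in DMSO libraries, with a wide gap between the groups. ZBTB12 had the largest fall of the family, at -1.19 ± 0.17 on the log2 scale (edgeR adjusted p = 0.00113). ZBTB22 (ENSG00000236104, chromosome 6, 33314418 to 33317942), from the same region, had 9.06, 6.92 and 8.65 CPM in treated and 13.7, 9.07 and 17.2 CPM in DMSO libraries. DMSO replicate 2 lay almost level with the highest treated library, and the log2 fold change was -0.70 ± 0.24 (edgeR adjusted p = 0.046). Without any one library other than DMSO replicate 2 it missed the threshold (edgeR adjusted p between 0.09 and 0.155), as it did with RLE factors (0.0549), with a filter of 1 CPM (0.0517), with limma-voom (0.067) and on log2(TPM + 1) (0.131).

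ZBTB3 (ENSG00000185670, chromosome 11, 62750963 to 62754160) had 4.34, 3.03 and 4.22 CPM in treated and 6.16, 6.46 and 8.28 CPM in DMSO libraries. It fell by 0.85 ± 0.21 on the log2 scale (edgeR adjusted p = 0.0122), with no overlap, and missed the threshold without treated replicate 2 (0.0575). ZBTB37 (ENSG00000185278, chromosome 1, 173868082 to 173903547) had 16.1, 15.5 and 14.4 CPM in treated and 23.7, 23.4 and 16.9 CPM in DMSO libraries. Its DMSO replicate 3 value was close to the treated ones, and the annotated gene overlaps GAS5, a small nucleolar RNA host. The log2 fold change was -0.47 ± 0.16 (edgeR adjusted p = 0.0466). It did not pass in 12 of 18 alternatives, among them the removal of DMSO replicate 1 (0.139), of treated replicate 1, 2 or 3 (edgeR adjusted p = 0.108, 0.13 and 0.162) and of the length trend (0.162).

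Of the less studied members not past the threshold, ZBTB43 came closest. It had 8.38, 9.08 and 10.3 CPM in treated and 6.16, 8.31 and 6.55 CPM in DMSO libraries, without overlap (log2 fold change 0.40 ± 0.17, edgeR adjusted p = 0.0975). ZBTB26 had 6.38, 6.92 and 6.91 CPM in treated and 8.43, 9.94 and 7.27 CPM in DMSO libraries (edgeR adjusted p = 0.133). ZBTB21 had 36.3, 34.1 and 32.3 CPM in treated and 24.2, 35.0 and 20.6 CPM in DMSO libraries, with DMSO replicate 2 inside the treated range (edgeR adjusted p = 0.169). Without DMSO replicate 2 the edgeR adjusted p was 0.00823 for ZBTB43, 5.65e-04 for ZBTB21 and 0.00308 for ZBTB41, all on the higher side. ZBTB44, among the 3 members with the highest mean CPM beside ZBTB48 and ZBTB40, had 61.6, 62.1 and 59.9 CPM in treated and 77.8, 80.6 and 58.5 CPM in DMSO libraries. It passed on the lower side without DMSO replicate 3 (edgeR adjusted p = 0.0288, against 0.214 with it). ZBTB39 had 55.9, 55.5 and 55.8 CPM in treated and 55.9, 52.5 and 60.8 CPM in DMSO libraries, which lay around the treated values. The remaining 3, ZBTB6, ZBTB11 and ZBTB34, had log2 fold changes of -0.23, -0.17 and 0.12 and overlapping groups.

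In 19 members, 55.9%, the groups did not overlap, against 56.1% of all tested genes. Of these, 15 members had all treated values below all DMSO values and 4 had them above. These are 44.1% and 11.8% of members, against 29.1% and 27% of all tested genes. Of the lower genes 3, ZBTB7A, ZBTB12 and ZBTB45, fell at least 2-fold, 8.82% of members against 6.37% of all tested genes, and of the higher genes 1, ZBTB20, rose at least 2-fold, 2.94% of members against 9.09% of all tested genes.

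**Figure D4:**
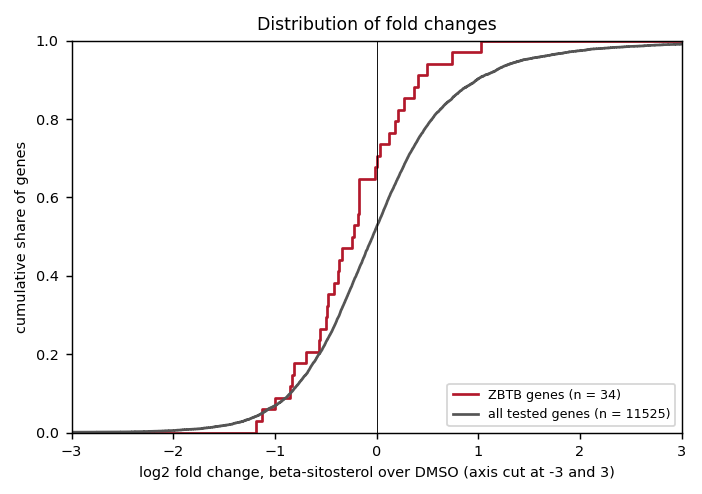
Cumulative share of genes by log2 fold change, beta-sitosterol over DMSO, for the 34 ZBTB genes and for all 11525 tested genes, the axis being cut at -3 and 3. The curve of the ZBTB genes lies to the left over most of the range, with medians of -0.23 and -0.04, and has no gene beyond -1.19 or 1.02.

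Levels of different genes can be set side by side only per length, which the deposited TPM gives. ZBTB2 was the most abundant member in both groups, at 58.5 ± 1.81 TPM in treated and 97.7 ± 8.52 TPM in DMSO libraries (SD, n = 3 each). In treated cells it was followed by ZBTB24 at 38.1 ± 1.13, ZBTB39 at 34.8 ± 0.579, ZBTB48 at 34.2 ± 1.28 and ZBTB12 at 22.2 ± 1.41 TPM. ZBTB39 and ZBTB48 did not differ beyond their spread. In DMSO cells the order after ZBTB2 was ZBTB12 at 62.7 ± 23.8, ZBTB24 at 50.1 ± 4.94, ZBTB18 at 46.1 ± 9.76 and ZBTB39 at 43.4 ± 12.5 TPM, with spreads that overlapped. ZBTB48 ranked 4 among the members in treated and 8 in DMSO cells, and ZBTB12 ranked 5 in treated and 2 in DMSO cells. At the low end were ZBTB20, ZBTB32 and ZBTB46, at 0.143 ± 0.026, 0.224 ± 0.113 and 0.496 ± 0.031 TPM in treated and 0.080 ± 0.020, 0.219 ± 0.057 and 0.516 ± 0.097 TPM in DMSO libraries. The median member stood at 4.89 TPM in treated and 8.62 TPM in DMSO libraries, against medians of 7.81 and 9.79 TPM over all tested genes. Listed TPM summed to between 57.0% and 57.8% of their nominal total in treated libraries and to 64.6%, 39.5% and 69.2% in DMSO libraries, so TPM of the groups are not on an equal footing.

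**Figure D5:**
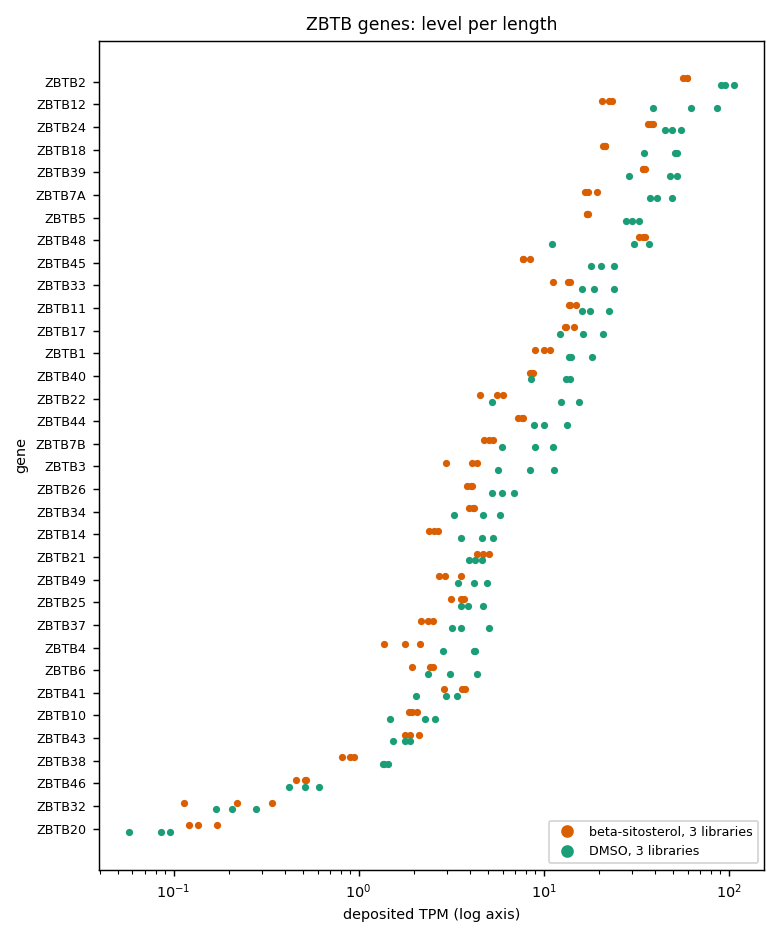
Deposited TPM of each ZBTB gene on a log axis, 3 points for beta-sitosterol libraries above 3 points for DMSO libraries, genes ordered by their DMSO mean. ZBTB2 is the highest gene in both groups and ZBTB20 the lowest, and the DMSO points are spread more widely than the treated ones for most genes.

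Some members are neighbours in the genome. ZBTB1 and ZBTB25 overlap on chromosome 14 and had log2 fold changes of -0.38 ± 0.17 and 0.03 ± 0.17. ZBTB26 and ZBTB6 lie 2243 bases apart on chromosome 9, with -0.34 ± 0.17 and -0.23 ± 0.22, and ZBTB34 and ZBTB43 lie 22429 bases apart on the same chromosome, with 0.12 ± 0.14 and 0.40 ± 0.17. None of these 6 genes passed the threshold, and the differences within pairs were not tested. In all, 17 of 34 members overlap another annotated gene on either strand. The called ones among them are ZBTB2, ZBTB4 (with SLC35G6), ZBTB5 (with GRHPR), ZBTB12, ZBTB20 and ZBTB37. Reads could be shared in each of these, depending on how they were counted.

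POZ zinc finger genes that carry other symbols were listed in 8 genes, of which 7 were tested, 1 rose and 1 fell. The shares over all tested genes were 19% higher and 21.8% lower. HIC1, a repressor named for its hypermethylation in cancer, had 2.48, 2.61 and 2.58 CPM in treated and 1.26, 1.10 and 0.866 CPM in DMSO libraries. Treated values were all more than the highest DMSO value, and HIC1 was higher by 1.25 ± 0.23 on the log2 scale (edgeR adjusted p = 0.00343). PATZ1, a regulator of lymphocyte development in mice, had 84.1, 74.4 and 83.2 CPM in treated and 116, 98.5 and 145 CPM in DMSO libraries (log2 fold change -0.57 ± 0.16, edgeR adjusted p = 0.0199). PATZ1 lost its call on log2(TPM + 1) and when DMSO replicate 1 or any single treated library was left out, so that 0 genes of the list were lower. Leaving out DMSO replicate 2 gave 2 higher and 2 lower, beside 3091 and 3549 of all genes. The other members HIC2, GZF1, MYNN, ZNF131 and BCL6 had log2 fold changes between -0.44 and 0.47 and did not pass.

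Corepressor subunits that POZ domains recruit were lower in 15 of 26 tested genes and higher in 3. Among all tested genes 21.8% were lower and 19% higher, and the list was not tested as a set. HDAC4, HDAC7 and BCOR were among the 4 with the smallest p. BCOR, the corepressor named for BCL6, had 81.5, 77.6 and 89.1 CPM in beta-sitosterol libraries, with no overlap, against 162, 261 and 170 CPM in DMSO libraries (log2 fold change -1.26 ± 0.19, edgeR adjusted p = 0.00148). The deacetylase genes HDAC4 and HDAC7 had log2 fold changes of -1.21 and -0.95. The 3 higher genes, named after their values were seen, were GPS2, MTA3 and HDAC1 with log2 fold changes of 0.80, 0.42 and 0.45. HDAC3 had 78.9, 82.4 and 78.7 CPM in treated and 72.7, 63.8 and 77.5 CPM in DMSO libraries (edgeR adjusted p = 0.297). The median of the 26 genes was -0.39, against -0.04 over all tested genes. On log2(TPM + 1), without DMSO replicate 1 and without treated replicate 1, 2 or 3, 0 were higher, and without DMSO replicate 3 there were 5. Over all genes 713 were higher on log2(TPM + 1), 1781 without DMSO replicate 1 and 2564 without DMSO replicate 3. Without treated replicate 1, 2 or 3 they numbered 1510, 1501 and 1507. Lower genes of the list numbered 9 without treated replicate 2 and 10 with the length trend removed, beside 1593 and 2397 of all genes.

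Protein partners of ZBTB factors were lower in 8 of 12 genes and higher in 0. Among all tested genes 21.8% were lower and 19% higher, and the list was not tested as a set. HCFC1, a chromatin cofactor, had 233, 215 and 225 CPM in treated and 497, 791 and 624 CPM in DMSO libraries (log2 fold change -1.51 ± 0.17, edgeR adjusted p = 4.31e-04). Beside it MYC and HUWE1, a partner and a ubiquitin ligase of ZBTB17, had log2 fold changes of -1.52 and -0.87. CTNND1, which encodes the catenin p120 that binds ZBTB33, had 6.89, 5.98 and 5.53 CPM in treated and 14.0, 12.6 and 12.4 CPM in DMSO libraries (log2 fold change -1.08 ± 0.15, edgeR adjusted p = 0.00102). ZBTB17 and ZBTB33 themselves did not pass, as given above. The median log2 fold change of the list was -0.59, against -0.04 over all tested genes. Its lower genes numbered 6 with a 1.5-fold minimum. They numbered 6 without treated replicate 1 and 10 without DMSO replicate 2, beside 1617 and 3549 of all genes.

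Genes described as targets of ZBTB factors split, with 6 higher and 5 lower of 17 tested. The shares over all tested genes were 19% higher and 21.8% lower. CDKN2B, a kinase inhibitor gene activated by ZBTB17 and held down by MYC, had 4.55, 5.03 and 4.36 CPM in treated and 0.969, 1.13 and 1.07 CPM in DMSO libraries. The groups were far apart (log2 fold change 2.14 ± 0.20, edgeR adjusted p = 2.04e-04). CIITA, which ZBTB32 helps to silence in plasma cells, and PFKP, a glycolytic gene repressed by ZBTB7A, had log2 fold changes of -1.47 and -0.94, while NFKBIA had 1.01. CDCA7, which ZBTB24 activates, had 181, 178 and 163 CPM in treated and 283, 350 and 228 CPM in DMSO libraries (log2 fold change -0.72 ± 0.16, edgeR adjusted p = 0.00786). CDKN1A, named after its values were seen, had 20.3, 20.4 and 21.1 CPM in treated and 7.13, 4.71 and 8.54 CPM in DMSO libraries. Without treated replicate 2 or 3, 3 targets were higher, and without treated replicate 1 there were 4. Over all genes 1510, 1501 and 1507 were higher without treated replicate 1, 2 and 3, against 2185 with every library. The direction in which each factor is known to act was not used in these counts.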

How the data were processed

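Counts per gene were deposited by the authors as whole numbers, not normalized, and TPM were deposited for the same rows, scaled by the authors for length and library. Per the submitters' processing notes, the tools were StringTie 2.2.1, featureCounts 2.0.1, STAR 2.7.10 and fastp 0.23.2, and the build was GRCh38. For the annotation, the strand setting and reads with several alignments, the method is not given in the sources used here. Per the labels' protocols, RNA was extracted with TRIzol. Repeats of a symbol were dropped (61 of 65807 rows). Counts were tested in R 4.3.3 with edgeR 4.0.16 (glmQLFit, TMM, filterByExpr, treatment as the only term), with the SE taken as the size of the log2 change divided by the root of F. Alternatives used DESeq2 1.42.0 and limma 3.58.1. For the length trend, gene length was taken from the ratio of counts to TPM, and a loess fit (span 0.3) was used as an offset. Members and lists were chosen with earlier results of these data known. All called members are named, with the 1 to 3 smallest p-values of other members per role, and of each list all called genes up to 6 or the 4 with the smallest p. The labels speak of replicate experiments, and p-values measure only the spread between these libraries. Positions are from RefSeq on GRCh38.p14. Some genes of the lists and markers are counted but not reported here by name.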

Additional observations from a re-analysis of the deposited data

How the results depend on the processing

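The 34 members were recomputed under 18 alternatives. Of 611 single-gene values, 518 kept their direction and their side of the threshold, 55 were no longer past it, 14 were newly past it and 24 changed sign, all of these in genes that did not pass. The count of lower members was 10 to 12 under other scalings, filters and tools, and 7 with a 1.5-fold minimum. It ranged from 6 to 14 over the left-out libraries. Higher members numbered 2, against 1 with library totals, 0 on log2(TPM + 1) and on log2(TPM + 0.1), 5 with the length trend removed and 5 with that trend removed together with the replicate block. They ranged from 0 to 5 over the left-out libraries. The cause was not tested.

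The labels do not say whether replicate numbers pair the libraries. Correlations of same-numbered deviations from the group means were 0.039, 0.10 and 0.15, and those of other pairs lay between -0.141 and 0.0245. With the replicate block alone, 12 members were lower and 2 higher, as without it. Every library correlated best with the one of its own number in the other group. For DMSO replicate 1 the margin was small, 0.0388 against 0.0245 with treated replicate 2. Whether the libraries are paired was not tested.

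Signs changed on log2(TPM + 1) and log2(TPM + 0.1) for ZBTB10 (-0.059 and -0.073), ZBTB17 (-0.23 and -0.24), ZBTB25 (-0.17 and -0.21), ZBTB34 (-0.11 and -0.13) and ZBTB46 (-0.017 and -0.035), and on the second scale for ZBTB32 (-0.021). They changed for ZBTB39 with RLE factors (0.012) and DESeq2 (0.0015), for ZBTB40 with the length trend removed without and with the block (0.033 and 0.035), and for ZBTB44 with both (0.0082). Over left-out libraries the log2 fold change ranged from -0.32 to 0.016 for ZBTB11, -0.089 to 0.13 for ZBTB17, -0.29 to 0.064 for ZBTB24, -0.053 to 0.16 for ZBTB25, -0.15 to 0.58 for ZBTB32 and -0.071 to 0.080 for ZBTB39.

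Depth limits ZBTB32 and ZBTB20 most, with 70 and 263 counts in all. ZBTB32 was not tested under the filter of 1 CPM.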

Other observations

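In a list of genes with a POZ domain but no zinc fingers, together with CUL3, the cullin scaffold to which POZ adaptors bind, 3 of 12 tested genes were lower and 0 higher. The shares over all tested genes were 21.8% lower and 19% higher. BACH2, a repressor of plasma cell differentiation, had 110.1, 112 and 118 CPM in beta-sitosterol libraries, against 342, 409 and 326 CPM in DMSO libraries. Its groups were far apart (log2 fold change -1.66 ± 0.12, edgeR adjusted p = 1.1e-04). KLHL6, a Cullin 3 adaptor of B cells that is mutated in lymphoma, had 32.2, 37.6 and 32.9 CPM in treated and 78.9, 86.2 and 79.7 CPM in DMSO libraries, and fell by 1.25 ± 0.12 on the log2 scale (edgeR adjusted p = 2.36e-04). KLHL20 fell by 0.48 on the log2 scale (edgeR adjusted p = 0.014). BACH1, the paralog of BACH2, stood at 23.9 ± 0.472 CPM in treated and 21.6 ± 2.05 CPM in DMSO libraries (SD, n = 3 each; edgeR adjusted p = 0.387). Without DMSO replicate 2 there were 6 lower genes. Over all genes 3549 of 11724 tested were then lower, against 2512 of 11525 with every library.

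Genes of methyl-CpG readers and their relatives, of DNA methyltransferases and of the ICF syndrome were listed beside ZBTB4, ZBTB24, ZBTB33 and ZBTB38. Of the 12 listed genes 6 were lower and 1 higher, HELLS, a chromatin remodeller. Among all tested genes 21.8% were lower and 19% higher. DNMT3B, the methyltransferase gene mutated in that syndrome, had 19.5, 22.3 and 19.4 CPM in treated and 52.7, 53.7 and 52.4 CPM in DMSO libraries. Both groups were tight (log2 fold change -1.37 ± 0.12, edgeR adjusted p = 1.69e-04). UHRF1 and CDCA7 had log2 fold changes of -1.77 and -0.72. HELLS had 101, 102 and 95.8 CPM in treated and 65.1, 83.9 and 51.8 CPM in DMSO libraries (log2 fold change 0.57 ± 0.17, edgeR adjusted p = 0.0295), and lost its call on log2(TPM + 1) and when DMSO replicate 1 or any single treated library was left out. Without treated replicate 1, 2 or 3 the lower genes of this list numbered 4, beside 1617, 1593 and 1654 of all genes. HELLS was named after its values were seen.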
